A study of Mus musculus with 6 samples.

Results

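The interferon regulatory factors described here are the genes Irf1, Irf2, Irf3, Irf4, Irf5, Irf7, Irf8 and Irf9, chosen by symbol and not by a threshold on their values. All 8 had a row among the 19436 genes of the deposited table that could be used, and all 8 had enough reads to be tested. The RNA came from cells labelled as erythroid precursors of C57BL/6 mouse fetal liver at E14.5. They were sorted in a gate named R1, in which CD71 (the receptor that takes up iron-loaded transferrin) is medium and Ter119 (present on red cells as they mature) is absent. There were 3 libraries of genotype -77-/- and 3 of wild type, labelled -77+/+ in the design text. The -77 element is an enhancer far upstream of Gata2, which encodes a zinc finger factor that early blood progenitors need, and -77-/- means that both alleles lack it. Both genotypes shared strain, tissue, age and gate, and the labels named no other allele or treatment. They gave no litter, batch, sex or embryo for a library, so the spread between libraries may be technical.

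Interferon regulatory factors share an amino-terminal DNA-binding domain that reads GAAA repeats, found in the interferon-stimulated response elements of antiviral genes. Irf3, Irf5 and Irf7 are held inactive in the cytoplasm until kinases downstream of viral and microbial sensors phosphorylate them, and they then switch on type I interferon and cytokine genes. Irf9 joins Stat2 in a complex that carries the signal from the interferon receptors to the nucleus, Irf1 is itself induced by interferon, and Irf2 often acts against Irf1 at the same sites. Irf4 and Irf8 are the lineage factors of the family. They bind DNA together with partners such as PU.1 and Batf3, and in fetal and adult blood formation Irf8 is known for its part in making monocytes and dendritic cells at the expense of granulocytes.

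The sequence just before the start site is shown for Irf8, Irf1 and Irf2, because these were the members in which a match to an interferon or STAT element was found. Each run is the 250 bases before the start site in RefSeq (build GRCm38.p6, plus strand, 5′ to 3′), with matches in capitals. The Irf8 run is chr8:120736108-120736357, the Irf1 run chr11:53769764-53770013 and the Irf2 run chr8:46739495-46739744.
Irf8: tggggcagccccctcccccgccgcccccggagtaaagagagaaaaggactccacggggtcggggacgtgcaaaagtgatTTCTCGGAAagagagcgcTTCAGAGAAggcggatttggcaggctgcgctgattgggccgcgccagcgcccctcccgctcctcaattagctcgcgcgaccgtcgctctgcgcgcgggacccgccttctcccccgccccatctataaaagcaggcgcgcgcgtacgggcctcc
Irf1: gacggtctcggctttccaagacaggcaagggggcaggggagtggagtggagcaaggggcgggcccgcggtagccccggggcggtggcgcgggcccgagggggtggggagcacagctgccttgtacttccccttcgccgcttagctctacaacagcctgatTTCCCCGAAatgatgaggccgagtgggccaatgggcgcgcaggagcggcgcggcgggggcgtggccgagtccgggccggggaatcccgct
Irf2: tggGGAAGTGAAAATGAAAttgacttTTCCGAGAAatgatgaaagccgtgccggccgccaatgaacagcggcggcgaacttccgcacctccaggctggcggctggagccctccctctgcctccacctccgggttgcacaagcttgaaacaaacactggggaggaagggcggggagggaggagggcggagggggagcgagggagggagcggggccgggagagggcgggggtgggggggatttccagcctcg

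All 8 members matched RefSeq, with 11 windows of 300 bases in all, reaching 50 bases past the start, and 5 of the windows held a match on either strand. The letters searched were GAAANNGAAA for the response element core, GGAANNGAAA for the site that an ETS factor such as PU.1 shares with an IRF, TTCNNNGAA for the gamma-activated site that pairs of STAT proteins bind, and AGATAA for GATA factors. The Irf8 promoter held gamma-activated letters 171 and 153 bases before the start, and the Irf1 promoter held them 90 bases before it. In the Irf2 promoter the ETS-IRF letters began 247 bases and the response element core 241 bases before the start, overlapping each other, and gamma-activated letters began 224 bases before it. Irf9 held AGATAA 7 bases before its start and Irf7 held it 2 bases after, while the windows of Irf3, Irf4 and Irf5 held none of these letters. Irf8, Irf1 and Irf9 each had another window, at a start further downstream, and it held no match. Among all 32851 windows, 3.44% held the response element core, 2.72% the ETS-IRF letters, 8.3% the gamma-activated letters and 11.2% AGATAA. A match describes the letters only, and binding was not measured.

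The deposited values are reads per gene divided by 1 size factor per library, called normalised reads here, and whole reads could be recovered from them. The libraries held between 16516338 and 20468899 reads, and 3 reads, the floor used here, are worth 2.56 to 3.42 normalised reads. Gata2, which the deleted enhancer serves and whose coding part is intact, had 74.2, 26.2 and 34.2 normalised reads in -77-/- libraries, against 128, 87.8 and 61.5 in wild type libraries. The groups overlapped, and the difference did not pass the test (log2 fold change -1.10, SE 0.60, limma adjusted p = 0.183).

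Markers of the labelled cell type and of other blood cells differed widely between the genotypes. The counts of markers that rose or fell stand beside the shares over all 15821 genes tested. Of those genes, 16.9% were called higher and 15.2% lower at a limma adjusted p under 0.05. Of 9 erythroid markers, which include Gata1, Klf1 and Tfrc (the gene of CD71), 8 fell, and their summed level was 2919 to 6667 normalised reads in -77-/- libraries, against 29734 to 32546 in wild type libraries. All 10 monocyte and macrophage markers rose, with sums of 23444 to 30092 in -77-/- libraries and 1322 to 2142 in wild type libraries. Of 10 dendritic cell markers 7 rose and 1 fell, with sums of 4863 to 5307 in -77-/- libraries and 1676 to 1977 in wild type libraries. Tcf4 and Flt3 had the largest means of that list in -77-/-, 1881 and 1283 normalised reads, against 963 and 121 in wild type. The marker that fell was Zbtb46, with means of 69.5 in -77-/- and 470 in wild type (log2 fold change -2.76, limma adjusted p = 9.24e-06). Xcr1 and Clec9a, with log2 fold changes of 0.56 and 0.07, did not pass. Among 9 granulocyte markers Mpo, Prtn3 and Csf3r rose, while S100a8 and S100a9 fell. Mpo alone had 37033 to 40756 normalised reads in -77-/- libraries and 8529 to 14749 in wild type libraries, and the sums of the other 8 overlapped, at 5730 to 6033 in -77-/- libraries and 4739 to 8117 in wild type libraries. Of 8 B lineage markers 5 rose, with sums of 3293, 1778 and 1935 in -77-/- libraries and 728 to 911 in wild type libraries. Only 1 of the 8 was called higher without -77-/- replicate 1, the highest, and 3 were with each library centred on its median or with limma-voom. No mast cell and eosinophil marker rose and 2 of 5 fell (1 with limma-voom), with sums of 82.6 to 90.5 in -77-/- libraries and 655 to 1916 in wild type libraries. Those that fell were Prg2 and Epx, with log2 fold changes of -5.91 and -5.79, and most of each wild type sum was Prg2. Cpa3, Ms4a2 and Mcpt8, with log2 fold changes of 0.38, -0.74 and 2.55, did not pass. For Mcpt8 every -77-/- library was above every wild type library. Of 4 megakaryocyte markers tested 2 fell (99.04 to 205 in -77-/- libraries, 218 to 419 in wild type libraries), and another, Gp1bb, had no read in any -77-/- library or in 2 of the wild type libraries. None was called lower without wild type replicate 2 or 3, and 1 was when any single -77-/- library was left out. Il7r, the 1 T and NK lineage marker that could be tested, rose. That list summed to 251 to 465 in -77-/- libraries and 2.28 to 73.2 in wild type libraries. Most of each sum was Il7r itself, with 442, 236 and 320 normalised reads in -77-/- libraries, against 56.3, 37.9 and 2.28 in wild type libraries. The part of these cell types in the results that follow was not tested, and in such bulk samples more cells of a type and more RNA per cell cannot be told apart.

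**Figure D1:**
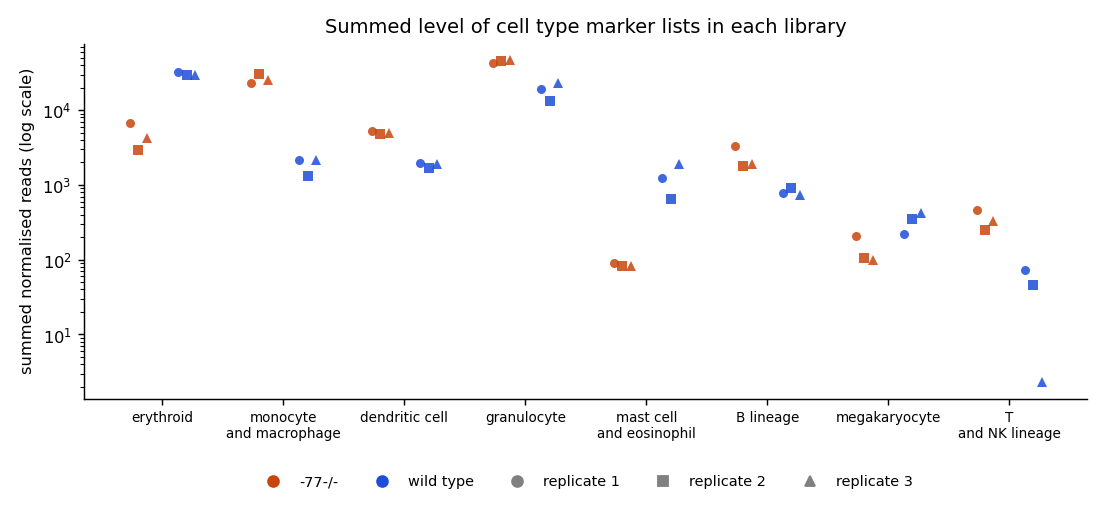
Summed normalised reads of each cell type marker list (log scale), 1 point per library, with -77-/- in orange to the left of wild type in blue and a symbol per replicate. The erythroid sums lie at 2919 to 6667 in -77-/- libraries, below 29734 to 32546 in wild type libraries, and the monocyte and macrophage sums lie at 23444 to 30092, above 1322 to 2142.

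Of the 8 interferon regulatory factor genes, 7 rose in -77-/- cells, none fell, and Irf3 did not pass the test. Across all 15821 genes tested, 16.9% were called higher and 15.2% lower, at a Benjamini-Hochberg adjusted p under 0.05 in limma, which fits all genes together on log2(normalised reads + 1). The 2 sets of libraries did not overlap for the same 7 members, against 46.5% of all genes tested. The increases differed widely in size. Irf5, Irf7 and Irf8 had log2 fold changes of 3.86 to 4.64, Irf1 and Irf4 of 1.57 and 2.14, and Irf2 and Irf9 of 0.59 and 1.03. The median over all genes tested was 0.10, and it moved to -0.11 when each library was centred on its own median. That scaling changed the split of all calls, 2681 higher and 2410 lower, to 2176 higher and 3495 lower, and under it 5 of the 8 members were called higher, since Irf2 and Irf9 no longer passed.

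**Figure D2:**
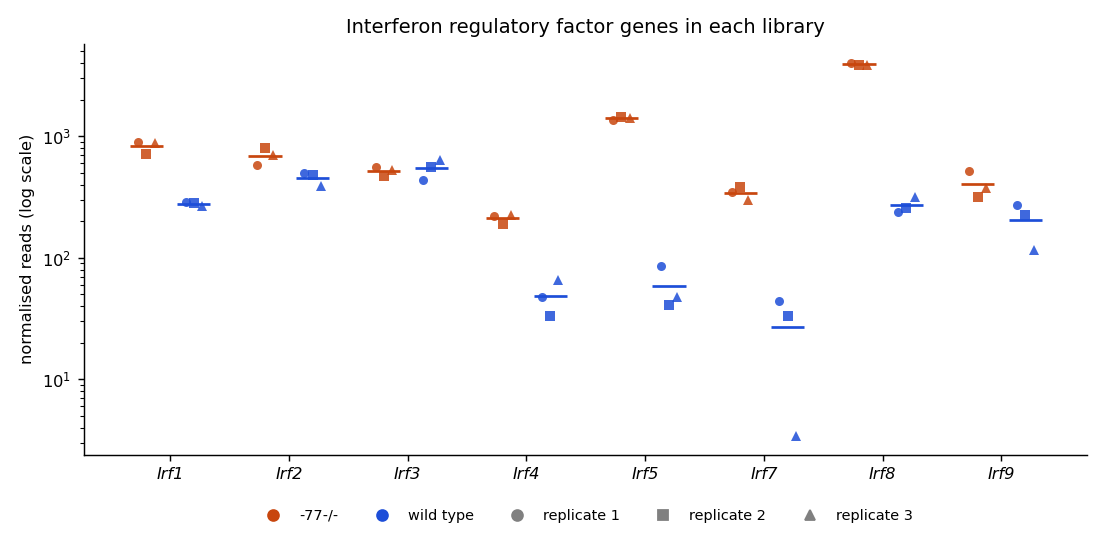
Normalised reads (log scale) of each member in each library, with -77-/- in orange to the left of wild type in blue, a symbol per replicate and a line at the mean of 3 libraries. For Irf3 the -77-/- points (469 to 558) lie within the wild type range of 441 to 637, whereas for Irf5 the -77-/- points lie between 1370 and 1439 and the wild type points between 40.9 and 86.3.

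**Figure D3:**
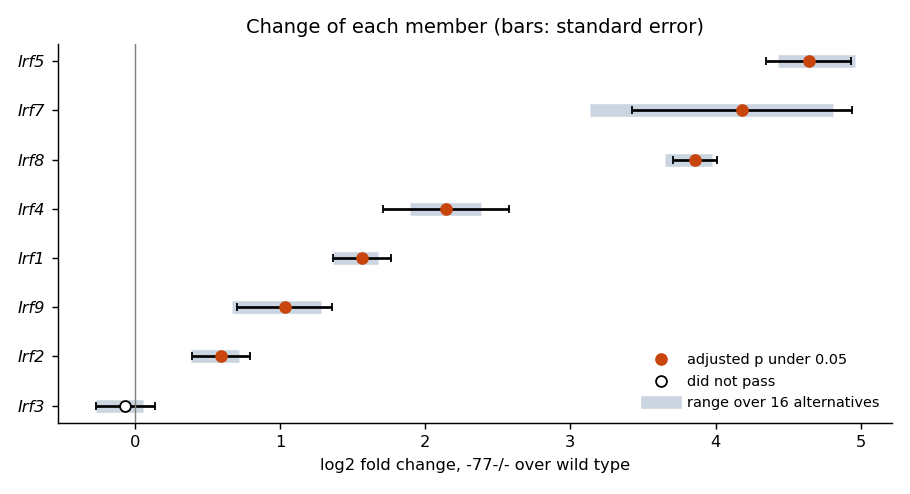
Log2 fold change of each member, -77-/- over wild type, on the log2(normalised reads + 1) scale, with the standard error as a bar and the range over 16 other settings as a band. Filled points passed at an adjusted p under 0.05, and Irf3, at -0.07, is the 1 open point, with a band that crosses 0.

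Irf8, the factor of monocytes and dendritic cells, had the most reads of the family in -77-/- cells. It had 4040, 3861 and 3868 normalised reads in -77-/- libraries, against 240, 256 and 319 in wild type libraries. The -77-/- libraries lay close together, with a coefficient of variation of 2.58% against 15.3% in wild type, and every one of them was far above every wild type library. The means were 3923 ± 101 in -77-/- and 272 ± 41.7 in wild type (SD, n = 3 each), a ratio of 14.4, and on the log2 scale the change was 3.86 (SE 0.15, limma adjusted p = 3.33e-10). The authors' deposited table gives Irf8 a log2 fold change of 3.85 with an adjusted p of 5.04e-141 from their own DESeq2 comparison. In GENCODE the annotated gene Gm20388 overlaps Irf8 on the same strand, so reads in the shared stretch are uncertain. Gm20388 itself had 986 ± 28.5 normalised reads in -77-/- and 928 ± 169 in wild type (SD, n = 3 each) and did not pass (log2 fold change 0.10, limma adjusted p = 0.660).

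Irf4, the closest relative of Irf8 and a factor of activated B cells, plasma cells and some dendritic cells, stood at a much lower level. It had 221, 191 and 225 normalised reads in -77-/- libraries, against 47.8, 32.9 and 66.1 in wild type libraries. The groups did not overlap, and the wild type values rested on 142 reads in all. The log2 fold change was 2.14 (SE 0.44, limma adjusted p = 0.00141). Within each library Irf8 exceeded Irf4 by more in -77-/- cells. Their log2 ratio was 4.21 ± 0.12 in -77-/- and 2.49 ± 0.37 in wild type (SD, n = 3 each), a difference of 1.71 with an exact two-sided permutation p of 0.1, which is the smallest p that 3 against 3 libraries allow.

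Irf5, which carries signals from Toll-like receptors to cytokine genes and marks myeloid and B cells, had the highest log2 fold change among the members, except without wild type replicate 2, where Irf7 had 4.60 and Irf5 4.43. Its values were 1370, 1439 and 1402 normalised reads in -77-/- libraries, against 86.3, 40.9 and 47.9 in wild type libraries. In -77-/- it was as even as Irf8, with a coefficient of variation of 2.47%, whereas wild type replicate 1 was well above the other wild type libraries and the coefficient there was 41.9%. The mean of 1403 ± 34.6 in -77-/- and 58.4 ± 24.5 in wild type (SD, n = 3 each) gave a ratio of 24.0, and the log2 fold change was 4.64 (SE 0.29, limma adjusted p = 1.91e-08). Tnpo3, the gene of a nuclear import receptor, overlaps Irf5 on the opposite strand. It moved the other way, with 3924 ± 242 normalised reads in -77-/- and 5014 ± 330 in wild type (SD, n = 3 each). Its log2 fold change was -0.35 (limma adjusted p = 0.0168), and this call was lost under 4 of 16 other settings, among them scaling by library totals and leaving out -77-/- replicate 1 (highest limma adjusted p = 0.0686).

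Irf3 and Irf7 are close relatives that act in turn in virus infection: Irf3 is present in most cells at rest, and Irf7 is induced by interferon in most cell types and amplifies the interferon response. Irf3 had 558, 469 and 523 normalised reads in -77-/- libraries, against 441, 559 and 637 in wild type libraries. The groups overlapped across most of their range, with means of 517 ± 45.2 in -77-/- and 546 ± 98.7 in wild type (SD, n = 3 each). The difference of -0.07 on the log2 scale (SE 0.20, limma adjusted p = 0.832) did not pass. It turned to 0.020 when libraries were scaled by their totals, to 0.0029 without -77-/- replicate 2 and to 0.054 without wild type replicate 3. Bcl2l12, which overlaps Irf3 on the opposite strand, did not pass either (log2 fold change 0.18, limma adjusted p = 0.874).

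Irf7 had 349, 383 and 300 normalised reads in -77-/- libraries, against 44.1, 32.9 and 3.42 in wild type libraries. Every -77-/- library was above every wild type library, and wild type replicate 3 stood apart with only 3 reads, the floor. The means were 344 ± 41.9 in -77-/- and 26.8 ± 21.0 in wild type (SD, n = 3 each), a ratio of 12.8. The log2 fold change was 4.18 (SE 0.76, limma adjusted p = 0.00103), against 3.67 in the authors' deposited table. The call held without each library in turn, but the size moved: it was 4.81 when wild type replicate 1 was left out and 3.13 when wild type replicate 3 was (limma adjusted p = 1.94e-05). The log2 ratio of Irf7 to Irf3 within a library was -0.59 ± 0.27 in -77-/- and -4.84 ± 2.06 in wild type (SD, n = 3 each). That difference of 4.25 had an exact two-sided permutation p of 0.1, the smallest possible. Phrf1 overlaps Irf7 and did not pass (log2 fold change -0.15, limma adjusted p = 0.386).

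Irf9, the DNA-binding subunit of its complex with Stat2, showed a smaller increase. It had 519, 319 and 372 normalised reads in -77-/- libraries, against 274, 225 and 116 in wild type libraries. The groups did not overlap, but the lowest -77-/- library and the highest wild type library were close. The log2 fold change was 1.03 (SE 0.33, limma adjusted p = 0.0255). The call was lost without -77-/- replicate 1 (limma adjusted p = 0.122), without -77-/- replicate 3 (0.0666), without wild type replicate 3 (0.0715) and with libraries centred on their median (0.0662, at a log2 fold change of 0.83). Rnf31, the catalytic subunit gene of the linear ubiquitin ligase, overlaps Irf9 on the same strand, so shared reads are uncertain. Rnf31 did not pass (log2 fold change 0.29, limma adjusted p = 0.539).

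Irf1, an activator that interferon induces, and Irf2, its frequent antagonist, both rose, Irf1 by more. Irf1 had 898, 712 and 885 normalised reads in -77-/- libraries, against 290, 280 and 266 in wild type libraries. The wild type libraries were nearly equal, with a coefficient of variation of 4.41%, and the groups were well apart. Its log2 fold change was 1.57 (SE 0.20, limma adjusted p = 2.25e-05), with means of 831 ± 104 in -77-/- and 279 ± 12.3 in wild type (SD, n = 3 each). The gene Gm17334 overlaps Irf1 on the opposite strand at a low level, 66.8 ± 17.4 normalised reads in -77-/- and 14.02 ± 14.49 in wild type (SD, n = 3 each), and did not pass (log2 fold change 3.14, limma adjusted p = 0.0530). It was called higher under 4 of 16 other settings (a pseudocount of 5, no filter, limma-voom, and without wild type replicate 2), with a lowest adjusted p of 0.0221. Its log2 fold change was 4.14 without wild type replicate 2 and 1.69 without wild type replicate 3.

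For Irf2 the values were 575, 797 and 703 normalised reads in -77-/- libraries, against 495, 484 and 392 in wild type libraries. The groups did not overlap, with -77-/- replicate 1 the nearest to wild type. Its change of 0.59 (SE 0.20, limma adjusted p = 0.0336) was the smallest among the 7 that passed. That call was lost without -77-/- replicate 2 (limma adjusted p = 0.158) or 3 (0.109), without wild type replicate 2 (0.0508) or 3 (0.0745), and with libraries centred on their median (0.162, at a log2 fold change of 0.39). Within a library, the log2 ratio of Irf1 to Irf2 was 0.27 ± 0.41 in -77-/- and -0.71 ± 0.13 in wild type (SD, n = 3 each). The difference of 0.98 had an exact two-sided permutation p of 0.1, again the smallest possible, and adjusting over the 3 ratios left each p at 0.1.

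Levels of different members can be compared only per length, so normalised reads were divided by the exon length of each gene in GENCODE (all transcripts together). In -77-/- cells the order was Irf8 (556 ± 14.3 normalised reads per kb), Irf5 (483 ± 11.9), Irf1 (209 ± 26.1), Irf3 (150 ± 13.1), Irf2 (93.5 ± 15.04), Irf7 (91.1 ± 11.1), Irf9 (74.9 ± 19.2) and Irf4 (43.3 ± 3.85; SD, n = 3 each). Of neighbours in this order, Irf2 and Irf7 overlapped between libraries, as did Irf7 and Irf9. In wild type cells the order was Irf3 (159 ± 28.7 normalised reads per kb), Irf1 (70.1 ± 3.09), Irf2 (61.8 ± 7.66), Irf8 (38.5 ± 5.91), Irf9 (38.04 ± 14.98), Irf5 (20.1 ± 8.42), Irf4 (9.99 ± 3.39) and Irf7 (7.10 ± 5.57; SD, n = 3 each). There the overlapping neighbours were Irf1 with Irf2, Irf8 with Irf9, Irf9 with Irf5, and Irf4 with Irf7. Irf3 was thus the fourth in -77-/- and first in wild type, and Irf8 first in -77-/- and the fourth in wild type. The order within each genotype was the same when the longest transcript gave the length.

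Summed over the 8 members, the level per length was 1743, 1665 and 1695 normalised reads per kb in -77-/- libraries, against 404, 406 and 403 in wild type libraries. The wild type sums were nearly equal although their members were not. Irf5 and Irf8 together made up 61.1 ± 1.39% of this sum in -77-/- and 14.51 ± 1.82% in wild type (SD, n = 3 each). Irf1, Irf2 and Irf3, which most cell types express, made up 26.6 ± 1.16% in -77-/- and 71.9 ± 4.92% in wild type. Irf3 alone made up 8.82 ± 0.579% in -77-/-, against 39.2 ± 7.17% in wild type, while the difference in its own level did not pass the test. These shares are a description, with no test.

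**Figure D4:**
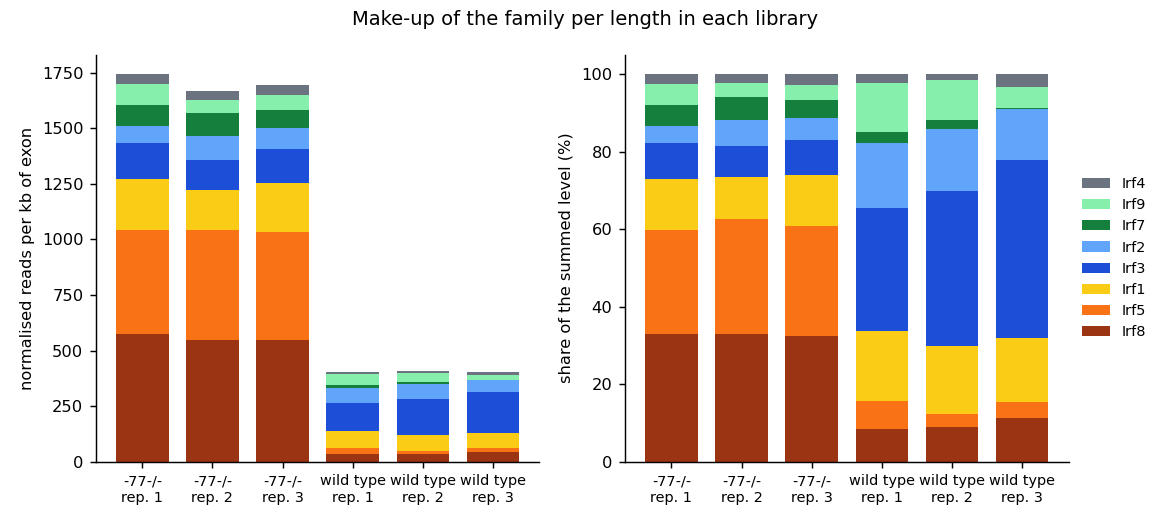
Normalised reads per kb of exon (left) and share of the summed level in percent (right) for the 8 members, 1 stacked bar per library, with -77-/- to the left of wild type. The -77-/- bars reach 1665 to 1743 per kb and are mostly Irf8 and Irf5, whereas the wild type bars reach 403 to 406 per kb and their largest piece is Irf3.

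The genes around the family were described by 9 lists, of sensors and kinases, interferons, receptors, DNA-binding partners, restraining factors and known targets. Together they named 136 genes, of which 110 were tested. Of these, 72 rose and 4 fell, where 16.9% of all genes tested were called higher and 15.2% lower. The median log2 fold change was 1.63, against 0.10 for all genes tested. The same shares over all genes stand beside the counts of each list below. The lists were picked with earlier results of these libraries known and are not independent evidence of direction.

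**Figure D5:**
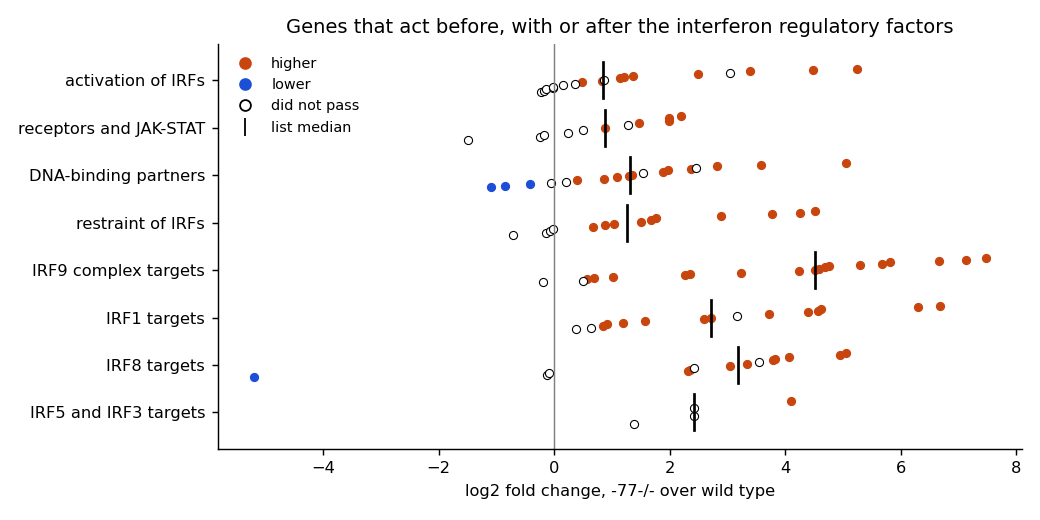
Log2 fold change, -77-/- over wild type, of every tested gene of 8 lists, 1 row per list, with genes that rose in orange, those that fell in blue, those that did not pass as open points, and a black line at the list median. The IRF9 complex targets lie furthest to the right, with a median of 4.51, and the sensors and kinases have a median of 0.85.

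Among the sensors, adaptors and kinases that activate Irf3, Irf5 and Irf7, 9 of 18 rose, none fell, and the median log2 fold change was 0.85. Dhx58 (LGP2, a cytoplasmic RNA sensor of the RIG-I family) rose by 5.24 on the log2 scale, with 167, 270 and 209 normalised reads in -77-/- libraries against 15.01, 9.98 and 0 in wild type libraries (limma adjusted p = 7.25e-04). Ticam2 (TRAM, the adaptor that links Tlr4 to Irf3) rose by 4.47 (5.11 without wild type replicate 1), Tmem173 (STING, the adaptor of DNA sensing) by 3.39 and Ddx58 (RIG-I itself) by 2.48 on the log2 scale. Further along, Myd88, Tirap, Irak1 and Irak4 rose by 0.48 to 1.37 on the log2 scale, and Ifih1 (MDA5) by 1.201. The kinases that phosphorylate Irf3 and Irf7 did not pass: Tbk1 had a log2 fold change of 0.36 (limma adjusted p = 0.0815), and Ikbke had 3.05 (limma adjusted p = 0.0737). Ikbke had 389, 292 and 299 normalised reads in -77-/- libraries, against 91.9, 95.8 and 5.70 in wild type libraries, where replicate 3 was far below the others. Mavs, Traf3 and Traf6, which relay the signal to those kinases, had log2 fold changes of -0.15, -0.03 and -0.18 and did not pass. Dhx58 had a log2 fold change of 4.001 when wild type replicate 3 was left out, and 6.001 when wild type replicate 1 was.

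Of 19 interferon genes, which the family is named for, 2 had a row in the table, and neither had enough reads to be tested. Ifnk had 0, 12.6 and 7.68 normalised reads in -77-/- libraries, against 0 in each wild type library. Ifng had 0, 4.86 and 0.854 normalised reads in -77-/- libraries, against 0 in each wild type library. The Ifng values lie around the floor of 3 reads. Ifnk lay above it in -77-/- replicates 2 and 3, with 13 and 9 reads. With no wild type read, neither gene gives a fold. The other 17, among them Ifnb1 and the Ifna genes, were not analysed here.

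Of 11 receptor chains, kinases and STAT genes of the interferon pathway, 5 rose, none fell, and the median log2 fold change was 0.87. Ifnar1 and Ifnar2, the chains of the type I interferon receptor, rose by 1.47 and 1.99, and Ifngr2 of the interferon gamma receptor rose by 2.19 on the log2 scale. Stat2, which binds Irf9, was uneven, with 200, 526 and 501 normalised reads in -77-/- libraries, against 195, 231 and 82.1 in wild type libraries. The groups overlapped, and its log2 fold change of 1.27 did not pass (limma adjusted p = 0.0583). Jak1 and Jak2, with log2 fold changes of -0.17 and -0.25, did not pass either.

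The partners with which Irf4, Irf8 and other members bind DNA included 11 of 18 genes that rose and 3 that fell, with a median log2 fold change of 1.32. Spi1 (PU.1, listed by its older symbol Sfpi1), the ETS factor that brings Irf4 and Irf8 to composite sites, had 2401 ± 376 normalised reads in -77-/- and 200 ± 8.05 in wild type (SD, n = 3 each). It rose by 3.57 on the log2 scale (SE 0.18, limma adjusted p = 2.16e-09). Batf3, a bZIP factor of dendritic cells that pairs with Irf8, rose by 5.05 on the log2 scale from a low level, with 78.3, 51.5 and 42.7 normalised reads in -77-/- libraries against 0, 3.99 and 0 in wild type libraries (limma adjusted p = 0.00460), and by 5.82 without wild type replicate 2. Spic, an ETS factor of red pulp macrophages, and Batf had log2 fold changes of 2.83 and 2.37, but their calls (limma adjusted p = 0.0330 and 0.0361) were lost with edgeR and without each -77-/- replicate in turn. The Spic call was also lost without wild type replicate 1, and its log2 fold change was 3.61 without wild type replicate 2 and 1.99 without wild type replicate 3. The Batf call was also lost with DESeq2 and without wild type replicate 2 or 3, and its log2 fold change was 3.17 without wild type replicate 1 and 1.31 without wild type replicate 2. The genes that fell were Tcf3, an E protein, by 1.09, Rela, an NF-kappaB subunit, by 0.85, and Ikzf1, the Ikaros gene, by 0.42 on the log2 scale. In the same family as Rela, Nfkb1 rose by 1.29 on the log2 scale (limma adjusted p = 3.15e-06).

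Of 14 genes that restrain the family or its signals, 10 rose, none fell, and the median log2 fold change was 1.27. Usp18, an interferon-induced protease that removes Isg15 and blocks the type I receptor, rose by 4.51 on the log2 scale, with 134, 90.4 and 85.4 normalised reads in -77-/- libraries against 21.6, 2.99 and 0 in wild type libraries (limma adjusted p = 0.00603). Its log2 fold change was 3.43 with wild type replicate 3 left out and 5.68 with wild type replicate 1 left out. Socs3, Socs1 and Irf2bpl (listed as 6430527G18Rik) had log2 fold changes of 4.25, 3.78 and 2.88, and each call was lost without -77-/- replicate 2 or 3. The Socs3 log2 fold change was 4.83 without -77-/- replicate 1. The Socs1 call was lost under 8 of 15 other settings, edgeR, limma-voom and a pseudocount of 0.1 among them, and its log2 fold change ranged from 3.09 without wild type replicate 3 to 4.67 without wild type replicate 2. The Irf2bpl call was also lost with edgeR and without wild type replicate 1 or 2, and its log2 fold change ranged from 2.14 without wild type replicate 1 to 3.95 without wild type replicate 3. Without -77-/- replicate 2 only 5 of these genes passed, and without -77-/- replicate 3 there were 6. Lyn, a kinase that holds Irf5 back, rose evenly by 1.77 on the log2 scale, with 2235 ± 5.53 normalised reads in -77-/- and 656 ± 16.8 in wild type (SD, n = 3 each; limma adjusted p = 9.98e-08). Of the Irf2 corepressors, Irf2bp2 rose by 0.67 on the log2 scale, whereas Irf2bp1 had -0.71 and did not pass (limma adjusted p = 0.0890).

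Known targets of the complex that holds Irf9 and Stat2 had the highest list median. Of 19 tested, 17 rose and none fell, with a median log2 fold change of 4.51, and the list summed to 8436, 11238 and 8375 normalised reads in -77-/- libraries, against 3332, 2565 and 2676 in wild type libraries. The groups were apart, and -77-/- replicate 2 was the highest. Several were almost silent in wild type. Mx2, an antiviral GTPase, had 708 reads in -77-/- and 1 read in wild type, a ratio of 655 after size factors (exact 95% interval 117 to 25911). Oas2, which senses double-stranded RNA, had 735 reads in -77-/- and 2 reads in wild type, a ratio of 340 (interval 93.8 to 2813). Ifit3, which binds foreign RNA with its relatives, had 285 reads in -77-/- and 2 reads in wild type, a ratio of 132 (interval 36.2 to 1094). These intervals cover counting error only. Oas1a rose by 6.66 on the log2 scale (limma adjusted p = 2.08e-04), and by 5.61 without wild type replicate 3 and 7.97 without wild type replicate 1. Ifi44 and Cmpk2, with log2 fold changes of 0.49 and -0.20, did not pass.

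Of 15 targets of Irf1, 12 rose, none fell, and the median log2 fold change was 2.71. The guanylate-binding proteins Gbp3 and Gbp2, GTPases that attack vacuoles of pathogens, rose by 6.68 and 6.29 on the log2 scale (limma adjusted p = 4.67e-05 and 1.37e-04). Without wild type replicate 3, where both had no read, these log2 fold changes were 5.50 and 5.65, and without wild type replicate 2 Gbp3 had 7.496. Psmb8, a catalytic subunit of the immunoproteasome, had 2424, 1947 and 1791 normalised reads in -77-/- libraries, against 136, 115 and 39.9 in wild type libraries. It rose by 4.56 on the log2 scale with no overlap (limma adjusted p = 5.02e-05). Nlrc5, the activator of MHC class I genes, had 126 reads in -77-/- and 3 reads in wild type, a ratio of 38.9 (exact 95% interval 12.997 to 191), and its call (limma adjusted p = 0.0104) was lost without -77-/- replicate 2 or 3. Cd274, Il15 and Ciita, with log2 fold changes of 0.37, 0.63 and 3.16, did not pass.

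Of 14 genes that Irf8 is known to bind or regulate in myeloid cells, 9 rose and 1 fell, with a median log2 fold change of 3.19. Tlr9, the receptor of unmethylated DNA, rose by 4.94 on the log2 scale (limma adjusted p = 3.66e-04), with 3.85 once wild type replicate 3 was left out and 5.73 once wild type replicate 1 was. Klf4, a monocyte factor downstream of Irf8, had 3866, 4268 and 3585 normalised reads in -77-/- libraries, against 350, 232 and 156 in wild type libraries. It rose by 4.06 on the log2 scale (limma adjusted p = 1.92e-07). Cybb, a subunit of the phagocyte oxidase, rose by 3.81 on the log2 scale, and Batf3 is also on this list. The gene that fell was Ptpn13 (Fas-associated phosphatase 1), known in myeloid cells as a gene that Irf8 represses, with 43.7, 9.72 and 1.71 normalised reads in -77-/- libraries, against 403, 431 and 361 in wild type libraries. Its log2 fold change was -5.19 (limma adjusted p = 4.01e-04), with -6.21 without -77-/- replicate 1 and -4.19 without -77-/- replicate 3. Asah1, the acid ceramidase gene, also known in myeloid cells as a gene that Irf8 represses, moved the other way, with 1524 ± 164 normalised reads in -77-/- and 307 ± 55.8 in wild type (SD, n = 3 each). It rose by 2.32 on the log2 scale (limma adjusted p = 2.10e-07). Gas2 and Nf1, with log2 fold changes of -0.12 and -0.09, did not pass. The monocyte and macrophage sums given above moved in the same direction as this list.

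Only 4 of 8 cytokine and chemokine targets of Irf5, Irf3 and Irf7 could be tested, and 1 of them, Tnf, rose. Tnf had 77.3, 162 and 140 normalised reads in -77-/- libraries, against 24.4, 12.97 and 0 in wild type libraries. Its log2 fold change was 4.10 (limma adjusted p = 0.00941), and the call was lost without -77-/- replicate 2 or 3 and with a pseudocount of 0.1. The log2 fold change was 5.03 without wild type replicate 1 and 2.69 without wild type replicate 3. Cxcl10, Ccl5 and Il12a, with log2 fold changes of 1.38, 2.41 and 2.42, did not pass and had few reads.

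The nearest genes on either side of each member did not follow it as a rule. They were taken from the genes used here, leaving out those that overlap the member, and are called beside it. The gaps ranged from 99 bases (Scaf1 and Irf3) to 327691 bases (Foxf1a and Irf8), so other annotated genes may lie between. Beside Irf4, Dusp22, a phosphatase gene, rose, with 199, 184 and 297 normalised reads in -77-/- libraries against 0, 2.99 and 0 in wild type libraries (limma adjusted p = 6.10e-05). That is 733 reads in -77-/- and 3 reads in wild type, a ratio of 226 (exact 95% interval 77.1 to 1099). Exoc2, on the other side of Irf4, had a log2 fold change of -0.08 and did not pass. Beside Irf9, Psme2, a gene of the interferon-induced proteasome activator, rose by 0.72 on the log2 scale (limma adjusted p = 0.0132), a call lost without -77-/- replicate 1 and with centred libraries. Beside Irf5, Tspan33, a tetraspanin of erythroid precursors, fell by 2.45 on the log2 scale (limma adjusted p = 7.88e-08). Beside Irf1, Rad50, a DNA repair gene, fell by 0.37 on the log2 scale (limma adjusted p = 0.0234), a call lost under 5 of 16 other settings. Cox4i1 beside Irf8, Scaf1 and Gm15545 beside Irf3, Kcp beside Irf5, Rassf7 and Deaf1 beside Irf7, and Rec8 beside Irf9 did not pass, although Rec8 was called lower without wild type replicate 2 (log2 fold change -3.87, limma adjusted p = 0.0488). Foxf1a, Enpp6 and Gm12216 had too few reads to be tested.

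For each member the 3 genes most like it were taken from 11179 well-expressed genes, by Pearson r of log2(normalised reads + 1) over the 6 libraries. All r lay between 0.984 and 0.9998. They are a description only, since the 6 libraries share the genotype split that 7 of the 8 members follow. The likest genes were Arhgdia, Calr and Ptprj for Irf1, Tbk1, Sdccag8 and Birc3 for Irf2, and C2cd2l, Derl1 and 2810408M09Rik for Irf3. They were Cytip and Sdf2l1 for Irf4, Ptgs1, Rassf5 and Arhgef6 for Irf5, and Nlrp3, Abi1 and Abi3 for Irf7. For Irf8 they were Sh2b3, Fam107b and Sec61a1, and for Irf9 they were Herpud1, Zfp937 and Gbf1.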

How the data were processed

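Total RNA (10 ng) of sorted fetal liver cells was amplified by NuGEN Ovation single cell chemistry and sequenced as single reads of 50 nt, per the labels. The submitters' processing notes name build mm9 and the tools RSEM 1.2.31, STAR 2.5, Bowtie and DESeq2. What each tool did, the annotation and the strand setting are not given in the sources used here. Library columns as the authors deposited them hold a normalised signal, gene counts divided by 1 size factor per library (0.878 to 1.17 as read from the values). In each library 100% of values divided by 1 step were whole to within 0.01, and these recovered reads, if from RSEM, are rounded expected counts. The authors' deposited log2 fold changes, and their adjusted p-values, held as a score, are quoted only where named.

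Of 19444 rows, 8 with cells moved sideways were left out, which left 19436 genes, of which 247 repeat a symbol. Since the table held no raw counts, the fit was limma 3.58.1 in R 4.3.3 (trend, robust) on log2(value + 1) of genes with a mean of at least 10 in the higher genotype, Benjamini-Hochberg threshold 0.05. On recovered reads, edgeR 4.0.16 called 2382 genes higher and 2353 lower. Fold changes are -77-/- over wild type on that scale, which shrinks those of low genes. Replicates were numbered in record order, so none are paired, and no pair within a genotype agreed within sampling noise. The labels do not say that libraries came from separate embryos. Lengths and gene order came from GENCODE vM21 (GRCm38), promoters from RefSeq GRCm38.p6.

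Members and lists were chosen with earlier results of these data known. All members were named, with at most 4 called genes of largest change per list and every gene called against its list. The nearest neighbours among the genes used that do not overlap the member were also named, and the 3 likest genes with a mean of at least 50. Other genes named (such as Lyn, Ikbke, Stat2, Cybb, Asah1 and Nfkb1) were chosen after their values were seen. Alternatives covered pseudocounts, filters, scalings, edgeR, DESeq2 1.42.0, limma-voom and leaving out each library. Results of some genes that these rules name are not reported here.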

Additional observations from a re-analysis of the deposited data

How the results depend on the processing

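Irf1, Irf4, Irf5, Irf7 and Irf8 passed under all 16 other settings, with log2 fold changes of 1.36 to 1.67, 1.89 to 2.38, 4.43 to 4.96, 3.13 to 4.81 and 3.65 to 3.98. Irf2 was lost under 5 of them (limma adjusted p of 0.0508 to 0.162 there) and Irf9 under 4 (0.0662 to 0.122). The number of members called higher was 5 to 7, with 5 under centred libraries, without -77-/- replicate 3 and without wild type replicate 3, and none was called lower. Of the pathway genes, 56 to 73 were called higher and 4 to 7 lower, with 7 lower under centred libraries. All genes called ranged from 1984 to 2981 higher and from 1912 to 3495 lower. Over 58 genes and 921 values, 849 kept direction and call, 52 lost the call, 5 gained it and 15 changed sign. The sign changed for genes that did not pass: with library totals, Irf3 had 0.020, Exoc2 0.0085 and Cox4i1 0.00027, and with centred libraries, Bcl2l12 had -0.022 and Gm20388 -0.099. Leaving out single libraries gave Irf3 -0.21 to 0.054, Scaf1 -0.22 to 0.028, Bcl2l12 -0.17 to 0.85, Rassf7 -2.09 to 0.12, Cox4i1 -0.20 to 0.0088 and Rnf31 -0.088 to 0.48. The cause of these shifts was not tested. Levels per kb changed with the longest transcript as length, but their order did not. No paired analysis was possible because the replicate numbers come from record order and pair no libraries. Depth limits Irf7 most, with 83 wild type reads in all, and the interferon genes Ifnk and Ifng, which had few reads in -77-/- and none in wild type.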
